A study of Mus musculus with 16 samples.

Results

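The genes described here are 35 inflammatory cytokines and chemokines of the mouse, chosen by name: interleukins (Il1a, Il1b, Il6, Il10, Il12b, Il15, Il18, Il23a, Il27) and the receptor antagonist Il1rn, Tnf, Tgfb1, Osm, the colony-stimulating factors Csf1, Csf2 and Csf3, CC chemokines (Ccl2 to Ccl9, Ccl12, Ccl17, Ccl22, Ccl24) and CXC chemokines (Cxcl1, Cxcl2, Cxcl3, Cxcl14, Cxcl16, Pf4, Ppbp). All 35 were rows of a count table of 21936 genes, and the 28 with at least 100 counts summed over 16 libraries were compared between genotypes. The rule itself used no measured value other than that total, but the members were chosen with earlier results of these data known. The 7 left out were Ccl24 with 98 counts in total, Il23a with 74, Ccl8 with 64, Ccl17 with 23, Il6 with 17, Csf3 with 5 and Csf2 with 0. A count of 0 in a library allows a level of up to 3 counts, which is 0.0839 CPM (counts scaled to the size of the library) in the deepest library and 0.124 CPM in the shallowest, for counting error alone.

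The libraries hold polyadenylated RNA of osteoclasts that were derived, in C57BL/6J mouse lines, out of marrow cells positive for CD11b, with 4 libraries for each of 4 genotypes. WT is the wild type. Ptprc KO lacks Ptprc, which encodes the receptor tyrosine phosphatase CD45 of blood cells. FLT3 ITD carries a knock-in internal tandem duplication in the receptor tyrosine kinase Flt3, a kind of change that makes the receptor signal without its ligand, and FLT3 ITD Ptprc KO carries both alleles. All cultures were given M-CSF at 50 ng/ml, for 3 days before RANKL was added at 20 ng/ml, and RNA was taken between day 3 and day 5, once mature osteoclasts were first seen. The labels give no age, sex or zygosity and do not say whether the 4 libraries of a genotype came from separate mice, so the p-values speak of the spread among these cultures alone. Cultures of this kind hold mononuclear precursors and macrophages beside the fused cells, and a lower level of a transcript in bulk RNA cannot be told apart from fewer cells of the type that makes it.

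Osteoclasts are bone-resorbing cells that form by fusion of monocyte-lineage precursors under M-CSF, the product of Csf1, and RANKL. Cytokines such as TNF and interleukin-1 can promote their formation and activity, and chemokines guide precursors and other leukocytes through G protein-coupled receptors. CXC chemokines with a glutamate-leucine-arginine motif, among them those of Cxcl1, Cxcl2 and Cxcl3, attract neutrophils through Cxcr2, and many inflammatory genes are switched on through NF-kB, a transcription factor family that RANKL also activates.

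Of the genes, 7 lie on chromosome 5 and 14 on chromosome 11. Ppbp, Pf4, Cxcl3, Cxcl1 and Cxcl2 stand in that order on the plus strand within one CXC cluster of chromosome 5, and their upstream sequences are printed because Cxcl3, Ppbp, Cxcl2 and Cxcl1 had the widest spread of the members between cultures and Pf4 lies among them. Each sequence is the 120 bases before the start of the gene in RefSeq (GRCm38.p6), on the plus strand and 5′ to 3′, and capitals mark a match to the NF-kB (kappa-B) consensus.
Ppbp, chr5:90768398-90768517: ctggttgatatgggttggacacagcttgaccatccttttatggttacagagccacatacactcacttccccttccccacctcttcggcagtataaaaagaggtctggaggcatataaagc
Pf4, chr5:90772315-90772434: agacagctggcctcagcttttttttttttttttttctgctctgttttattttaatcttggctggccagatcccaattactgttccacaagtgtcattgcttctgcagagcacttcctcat
Cxcl3, chr5:90785981-90786100: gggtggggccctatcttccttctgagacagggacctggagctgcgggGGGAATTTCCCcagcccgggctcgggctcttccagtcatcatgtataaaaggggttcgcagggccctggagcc
Cxcl1, chr5:90891125-90891244: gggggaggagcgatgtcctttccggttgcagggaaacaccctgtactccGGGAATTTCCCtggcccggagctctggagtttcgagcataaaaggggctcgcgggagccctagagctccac
Cxcl2, chr5:90903779-90903898: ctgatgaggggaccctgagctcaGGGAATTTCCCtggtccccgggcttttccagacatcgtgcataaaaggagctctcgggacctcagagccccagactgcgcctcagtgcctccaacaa

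Cxcl1, Cxcl2 and Cxcl3 carry the same 11 bases, GGGAATTTCCC, a nearly palindromic form of that consensus which holds 2 overlapping matches. It lies 71 to 61 bases before the start of Cxcl1, 97 to 87 before that of Cxcl2 and 73 to 63 before that of Cxcl3. Of 32851 mouse promoter windows of the same 250 bases upstream, 14 held this 11-base run, or 0.0426%, and no other matched member did. RefSeq windows were found for 23 of the 35 genes. The NF-kB consensus, searched on both strands, was present for 6 of the 23 (Ccl9, Csf1, Cxcl1, Cxcl2, Cxcl3 and Il6), against 3.9% of all windows. The AP-1 motif TGANTCA, also searched on both strands, was present for 5 (Ccl9, Il1a, Il1rn, Il6 and Ppbp), against 6.75%. TATAAA on the gene strand was present for 8, against 7.59%. These are matches of letters and describe no binding.

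The depth was 24211724 to 35773313 counts a library. Ptprc, the check of the Ptprc labels, lay between 30.8 and 86.7 CPM in the 8 libraries labelled Ptprc KO or FLT3 ITD Ptprc KO and between 230.2 and 543 CPM in the other 8. The FLT3 ITD label was not checked. Flt3 itself was low, from 0.0306 CPM in FLT3 ITD Ptprc KO replicate 1 to 1.42 CPM in WT replicate 1. Among pairs of the same genotype, FLT3 ITD replicates 1 and 3 were the closest, with a chi-square of 2.76 a gene, where Ptprc KO replicates 2 and 3 came next with 13. A library is called a culture here, but the labels do not say that these 2 came from separate cultures, so the n of FLT3 ITD may be below 4. With the 2 summed into 1 library, again 0 members were called in each test. Ctsk, the collagen-degrading protease of osteoclasts, was at 1169 to 18506 CPM. Summed osteoclast markers (10 of 10 tested) spanned 8453 to 64442 CPM over the libraries, and FLT3 ITD Ptprc KO replicates 1, 2 and 4 held the lowest sums, at 8453, 9140 and 10225 CPM.

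Ccl9 stood far above the other members. Levels between genes are compared in TPM, which scale a transcript's reads by its length and by the library. Ccl9, an osteoclast-lineage chemokine that acts through Ccr1, averaged 2426 TPM over the 16 libraries and was above Ccl6, the next, in 16 of 16 libraries. Ccl6 averaged 357 TPM, Pf4 314, Tgfb1 181, Il1rn 160, Ccl2 159, Cxcl16 131 and Ccl7 65.1. These 8 are given library by library, with genes of their loci, and any other member so given was chosen after its values were seen. From Ccl6 down to Ccl7, no neighbour pair held its order in more than 12 of 16 libraries, so the order of those means is not that of most single cultures. The lowest compared member was Il12b, at 0.431 TPM. Csf1 averaged 1.26 TPM, Il27 1.30, Il1b 1.92 and Il1a 3.36.

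**Figure D1:**
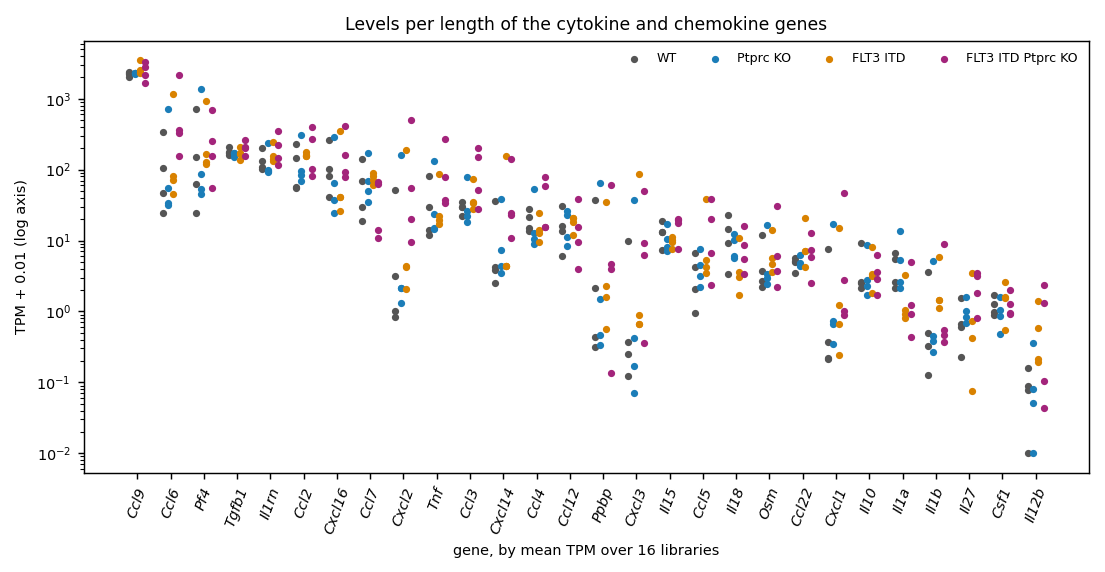
TPM (plus 0.01, log axis) of the 28 compared genes in each of 16 libraries, each point a library and each colour a genotype, ordered by the mean. Ccl9 stays between 1675 and 3476 TPM while Ccl6, Pf4 and most chemokines spread over more than a factor of 10.

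Ccl9 and Tgfb1 were steady across cultures and most of the others were not. The spread of a gene within genotypes is given as its biological coefficient of variation (BCV) from the edgeR fit. The median BCV of the 28 members was 0.755, against 0.263 over the 12093 genes tested. Of the 28, 26 exceeded the median of all genes and 19 exceeded its 90th percentile. Tgfb1, a growth factor stored in bone matrix, had the lowest BCV of the 28, 0.218, and Ccl9 had 0.243. The highest were Cxcl3 at 1.68, Ppbp at 1.64 and Cxcl2 at 1.58. The share of a member's variance in log2 CPM that lay between genotypes had a median of 20.3%, against 26.0% for all genes. Group means of so few cultures take up part of the variance by sampling alone, so this share does not measure an effect of genotype.

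One culture of each genotype carried the high values. WT replicate 3, Ptprc KO replicate 4, FLT3 ITD replicate 4 and FLT3 ITD Ptprc KO replicate 2 were each the highest of their genotype for 13 of the 28 members (46.4%): Il1a, Il1b, Il1rn, Tnf, Osm, Ccl6, Cxcl1, Cxcl2, Cxcl3, Cxcl14, Cxcl16, Pf4 and Ppbp. Of the 12093 genes tested, 14.6% showed the same order, and it was the commonest of 256 possible, with 1766 genes against 649 for the next. The same 13 members had it in TPM, where 9.55% of genes did. In all, 22 of the 28 peaked in at least 3 of these 4 cultures. WT replicate 3 was the highest WT culture for 18 members, and each of the remaining cultures was the highest of its genotype for 24. The cultures were picked out by these values, so the counts are a description only.

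**Figure D2:**
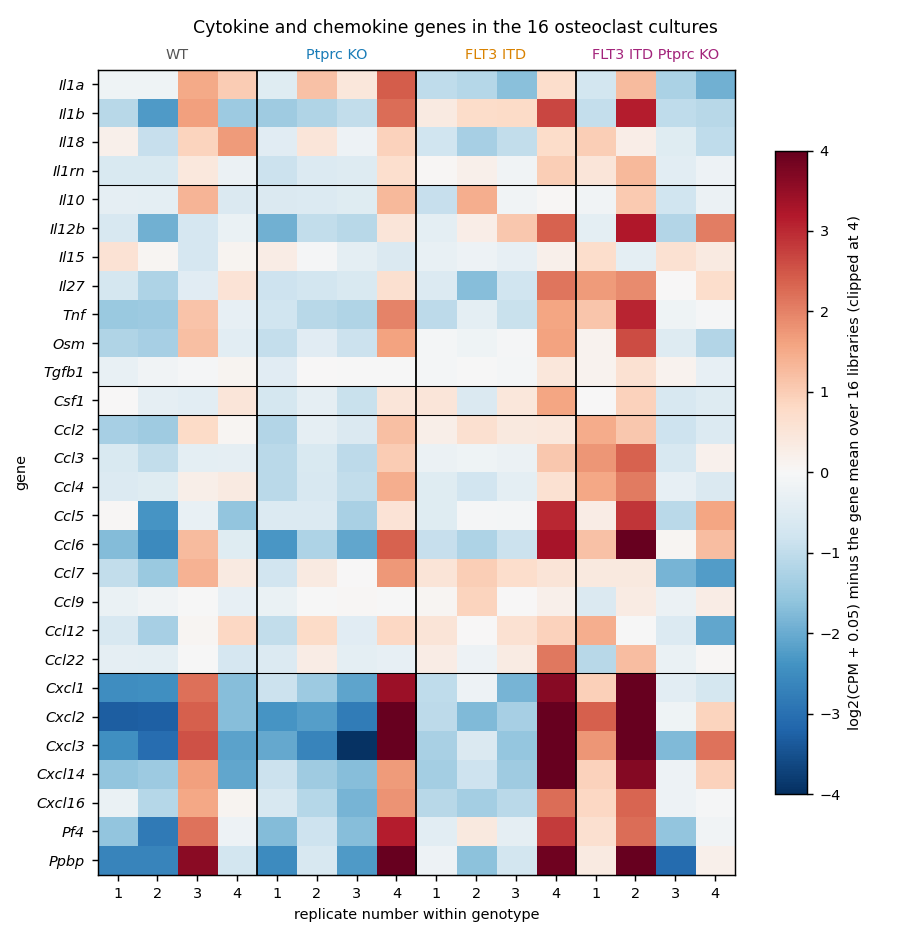
Log2(CPM + 0.05) of each compared gene minus its mean over 16 libraries (clipped at 4), with genes in rows by role and libraries in columns by genotype and replicate. WT replicate 3, Ptprc KO replicate 4, FLT3 ITD replicate 4 and FLT3 ITD Ptprc KO replicate 2 form red columns for 13 genes, while Ccl9 and Tgfb1 stay pale.

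Cxcl3, Ppbp, Cxcl2 and Cxcl1 showed the widest spread of the 28. Cxcl2, a neutrophil attractant, was at 0.588, 0.61, 32.9 and 1.88 CPM in WT replicates 1 to 4 and at 1.17, 1.31, 0.869 and 106 CPM in Ptprc KO. It was at 3.04, 1.82, 2.47 and 141 CPM in FLT3 ITD and at 33.1, 337, 5.54 and 11.8 CPM in FLT3 ITD Ptprc KO. The highest culture of a genotype exceeded the lowest by 55.9-fold in WT, 122-fold in Ptprc KO, 77.7-fold in FLT3 ITD and 60.9-fold in FLT3 ITD Ptprc KO, and all 4 ranges overlap.

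Cxcl3, a paralog of Cxcl2, followed the same cultures. Its values were 0.311, 0.186, 11.4 and 0.391 CPM in WT, 0.421, 0.263, 0.0756 and 41.2 CPM in Ptprc KO, 0.752, 1.26, 0.625 and 107 CPM in FLT3 ITD, and 6.65, 56.2, 0.521 and 8.79 CPM in FLT3 ITD Ptprc KO. Cxcl1, the third carrier of the shared 11-base site, had 0.104, 0.106, 3.88 and 0.213 CPM in WT, 0.421, 0.263, 0.151 and 9.07 CPM in Ptprc KO, 0.376, 0.693, 0.188 and 10.8 CPM in FLT3 ITD, and 1.62, 28.6, 0.586 and 0.48 CPM in FLT3 ITD Ptprc KO. In each genotype 1 culture stood above the other 3, and FLT3 ITD Ptprc KO replicates 1 and 4 were also raised for Cxcl3 beside the WT median. Cxcl2 and Cxcl3 share sequence: 5.84% of the 50-base words of Cxcl2 transcripts also occur in Cxcl3. Of those of Cxcl3, 4.24% occur in another gene, with Cxcl2 as 1 of many. Their counts may therefore not be fully separate, which was not tested.

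The windows of Pf4 and Ppbp, printed above, hold no match to the consensus. Both genes peaked in the same cultures, and whether the sites bear on any of these values was not tested. Pf4 encodes platelet factor 4, which macrophages can also make. It was at 11.4, 4.8, 154 and 29.96 CPM in WT, 10.3, 19.1, 10.5 and 299 CPM in Ptprc KO, 25.5, 44.7, 26.4 and 240.0 CPM in FLT3 ITD, and 53.1, 160.2, 11.3 and 30.7 CPM in FLT3 ITD Ptprc KO. Ppbp, the precursor of another platelet chemokine, was at 0.104, 0.106, 11.7 and 0.533 CPM in WT, 0.12, 0.569, 0.151 and 23.1 CPM in Ptprc KO, 0.783, 0.26, 0.532 and 14.3 CPM in FLT3 ITD, and 1.19, 20.9, 0.0651 and 1.05 CPM in FLT3 ITD Ptprc KO. The same culture was highest for both genes in every genotype, and all genotype ranges overlap. A list of 10 other megakaryocyte and platelet genes summed to between 1.25 and 4.84 CPM in every library, and its members Gp9 and Gp1bb had 0 counts throughout. That sum too was highest in the same cultures, at 4.05 CPM in WT replicate 3, 4.54 CPM in Ptprc KO replicate 4, 4.41 CPM in FLT3 ITD replicate 4 and 4.84 CPM in FLT3 ITD Ptprc KO replicate 2. Of the 3 genes of the list that were tested, only 1 peaked in all 4 of these cultures. Clec1b, with the most counts of the list, 567, peaked in 1 of them.

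**Figure D3:**
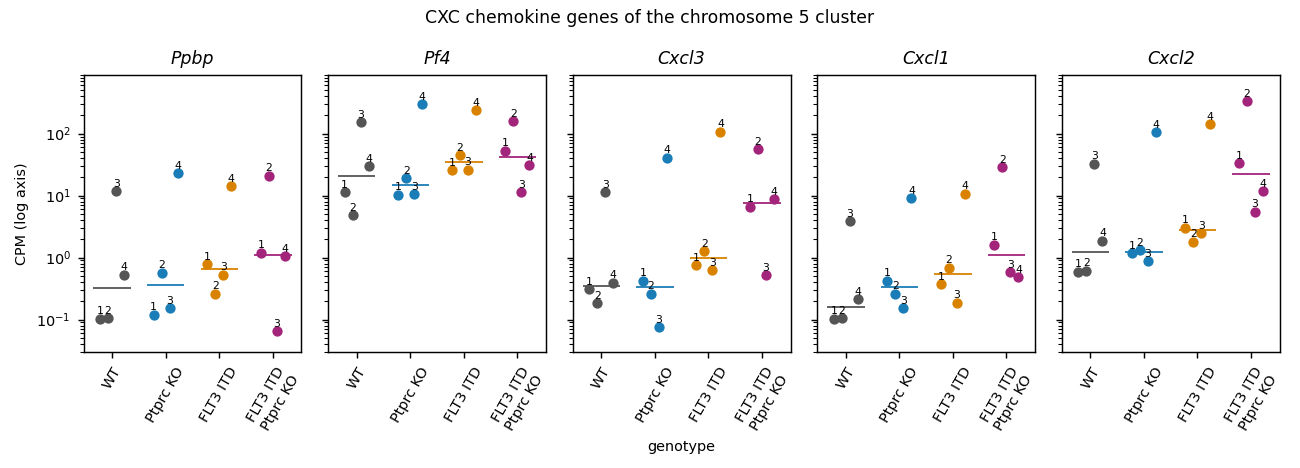
CPM (log axis) of Ppbp, Pf4, Cxcl3, Cxcl1 and Cxcl2 by genotype, in chromosome order, with 1 numbered point per library and a line at the median of 4. In every panel WT replicate 3, Ptprc KO replicate 4, FLT3 ITD replicate 4 and FLT3 ITD Ptprc KO replicate 2 are the top points of their genotypes.

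Ccl6, Il1rn and Cxcl16 peaked in the same 4 cultures at higher levels. Ccl6, a CC chemokine of myeloid cells, was at 22.8, 12.97, 185 and 54.8 CPM in WT, 15.4, 32.3, 18.1 and 398 CPM in Ptprc KO, 40.2, 32.6, 42.5 and 747 CPM in FLT3 ITD, and 174, 1265, 81.6 and 179 CPM in FLT3 ITD Ptprc KO. All 4 FLT3 ITD Ptprc KO cultures exceeded 3 of the 4 WT cultures, and WT replicate 3 lay among them. Cxcl16, a membrane-bound chemokine that binds Cxcr6, was at 66.8, 36.02, 233 and 85.8 CPM in WT, 50.8, 36.3, 21.9 and 275 CPM in Ptprc KO, 37.2, 30.6, 37.8 and 373 CPM in FLT3 ITD, and 140.1, 403, 68.6 and 76.4 CPM in FLT3 ITD Ptprc KO. Il1rn, the antagonist of the interleukin-1 receptor, was at 166, 164, 336 and 211 CPM in WT, 138, 170.2, 174 and 403 CPM in Ptprc KO, 261, 291, 229 and 492 CPM in FLT3 ITD, and 353, 620.2, 187 and 219 CPM in FLT3 ITD Ptprc KO. Its swings were small beside those of the CXC cluster, at most 3.32-fold within a genotype.

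Among the cytokines, Tnf, named after its values were seen, behaved alike. It was at 6.12, 6.23, 38.1 and 13.7 CPM in WT, 9.92, 7.97, 7.48 and 67.5 CPM in Ptprc KO, 8.33, 13.1, 9.25 and 50.7 CPM in FLT3 ITD, and 36.98, 140.5, 15.3 and 16.6 CPM in FLT3 ITD Ptprc KO. All 4 FLT3 ITD Ptprc KO cultures were above 3 of the 4 WT cultures, but the ranges overlap. Il1a and Il1b, the agonists that Il1rn opposes, stayed below 8 CPM in every library: Il1a spanned 0.33 to 7.72 CPM and Il1b 0.0796 to 5.39 CPM. Both overlap a gene on the other strand (Gm14023 and Il1bos), as do Il18, Ccl2, Ccl6 and Cxcl16, and the sources used here do not give whether counting used the strand.

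The monocyte chemokines of chromosome 11 followed the 4 cultures only in part. Ccl2, a ligand of Ccr2, was at 18.4, 17.3, 79.1 and 48.6 CPM in WT, 20.6, 36.03, 30.9 and 106 CPM in Ptprc KO, 54.1, 72.3, 60.7 and 62.4 CPM in FLT3 ITD, and 129.6, 98.4, 25.8 and 31.5 CPM in FLT3 ITD Ptprc KO. The 4 FLT3 ITD cultures were even for this gene. Ccl7, its neighbour, was at 6.29, 4.43, 32.8 and 16.2 CPM in WT, 7.37, 16.2, 12.8 and 42.01 CPM in Ptprc KO, 17.99, 24.9, 20.7 and 17.9 CPM in FLT3 ITD, and 16.5, 16.6, 3.42 and 2.61 CPM in FLT3 ITD Ptprc KO. For Ccl7 every FLT3 ITD Ptprc KO culture lay below every FLT3 ITD culture, the only gap of that kind among the 28 members, and 3.52% of all genes showed one in this direction. The fitted log2 fold change was -1.06 (SE 0.71) with an adjusted p of 0.336 in edgeR's quasi-likelihood test. Ccl12, of the same locus, spanned 0.51 to 6.43 CPM.

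Macrophage genes moved with the same cultures. Of 10 macrophage markers tested, 7 were highest in these 4 cultures, and the list summed to 7069 CPM in WT replicate 3 against 3058 to 4618 CPM in the other WT cultures. The sum was 7596 CPM in Ptprc KO replicate 4, 8242 CPM in FLT3 ITD replicate 4 and 9181 CPM in FLT3 ITD Ptprc KO replicate 2, with at most 4686 CPM in any other culture of those genotypes. C1qa, a complement gene of macrophages, was at 431, 463, 501 and 578 CPM in the 4 cultures and at most 206 CPM in the other 12. Of 8 neutrophil markers tested, 3 had the pattern. That list summed to 91.8, 188, 108 and 12.8 CPM in the 4 cultures, the top of each genotype, and to between 0.749 and 52.5 CPM in the other 12. In FLT3 ITD Ptprc KO the lead was slight, with replicate 4 at 12.1 CPM. None of 10 osteoclast markers had the pattern. Their sum was the lowest of the genotype in 3 of the 4 cultures and the second lowest in FLT3 ITD Ptprc KO replicate 2. In WT it was 29343 CPM in replicate 3, close to 29625 CPM in replicate 1. In Ptprc KO it was 24873 CPM in replicate 4, close to 25427 CPM in replicate 1. Only in FLT3 ITD was the gap wide, at 15878 CPM in replicate 4 against at least 48383 CPM in the other cultures. The mast cell and basophil list summed to at most 0.75 CPM in any library, with Mcpt8, Fcer1a and Cma1 at 0. Dendritic cell markers (4 of 6 tested, none with the pattern in all 4) summed to the highest of their genotype in 3 of the 4 cultures, at 41.7 CPM in Ptprc KO replicate 4, 161.6 CPM in FLT3 ITD replicate 4 and 433 CPM in FLT3 ITD Ptprc KO replicate 2, but not in WT, where all 4 lay between 32.7 and 58.6 CPM. Itgax, an integrin gene that macrophages also express, made up 37.2, 153 and 422 CPM of those 3 sums. The part of any of these cells in the values of the cytokine genes was not tested.

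**Figure D4:**
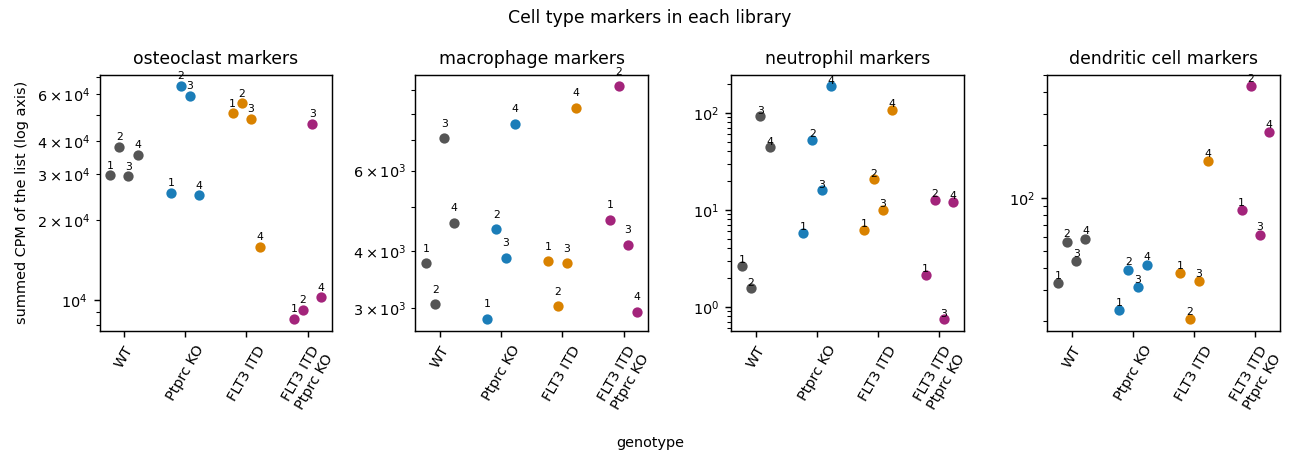
Summed CPM (log axes) of osteoclast, macrophage, neutrophil and dendritic cell marker lists by genotype, with 1 numbered point per library. The macrophage sum tops its genotype in WT replicate 3, Ptprc KO replicate 4, FLT3 ITD replicate 4 and FLT3 ITD Ptprc KO replicate 2. The osteoclast sum is lowest of its genotype in the first 3 of these, by a wide gap only in FLT3 ITD replicate 4.

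Against that spread, no member passed the test in any comparison of genotypes. Each of the 28 was tested in 5 pairs of genotypes, in the interaction of the 2 alleles (the change with Ptprc loss under FLT3 ITD minus that under WT) and for any difference among the 4 genotypes, with Benjamini-Hochberg adjustment over all 12093 genes and a threshold of 0.05 in edgeR. Of all genes, 0.0413% were called in FLT3 ITD against WT, 0.0331% in Ptprc KO against WT, 0.00827% in FLT3 ITD Ptprc KO against FLT3 ITD, 0.091% against Ptprc KO and 0.108% against WT. A further 0.00827% were called in the interaction and 0.223% for any difference. With edgeR, the count of 0 members is what a list of this size would show at the background share. DESeq2 also called 0 members in each of the 7 tests, with 4 of the 28 given no adjusted p. Its calls over all genes were more: in the order above, 0.498%, 0.0913%, 8.17%, 2.76% and 0.971% in the pairs, 1.37% in the interaction and 3.78% for any difference. The standard errors were wide, with a median of 0.84 log2 units in FLT3 ITD against WT and a highest of 2.15.

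**Figure D5:**
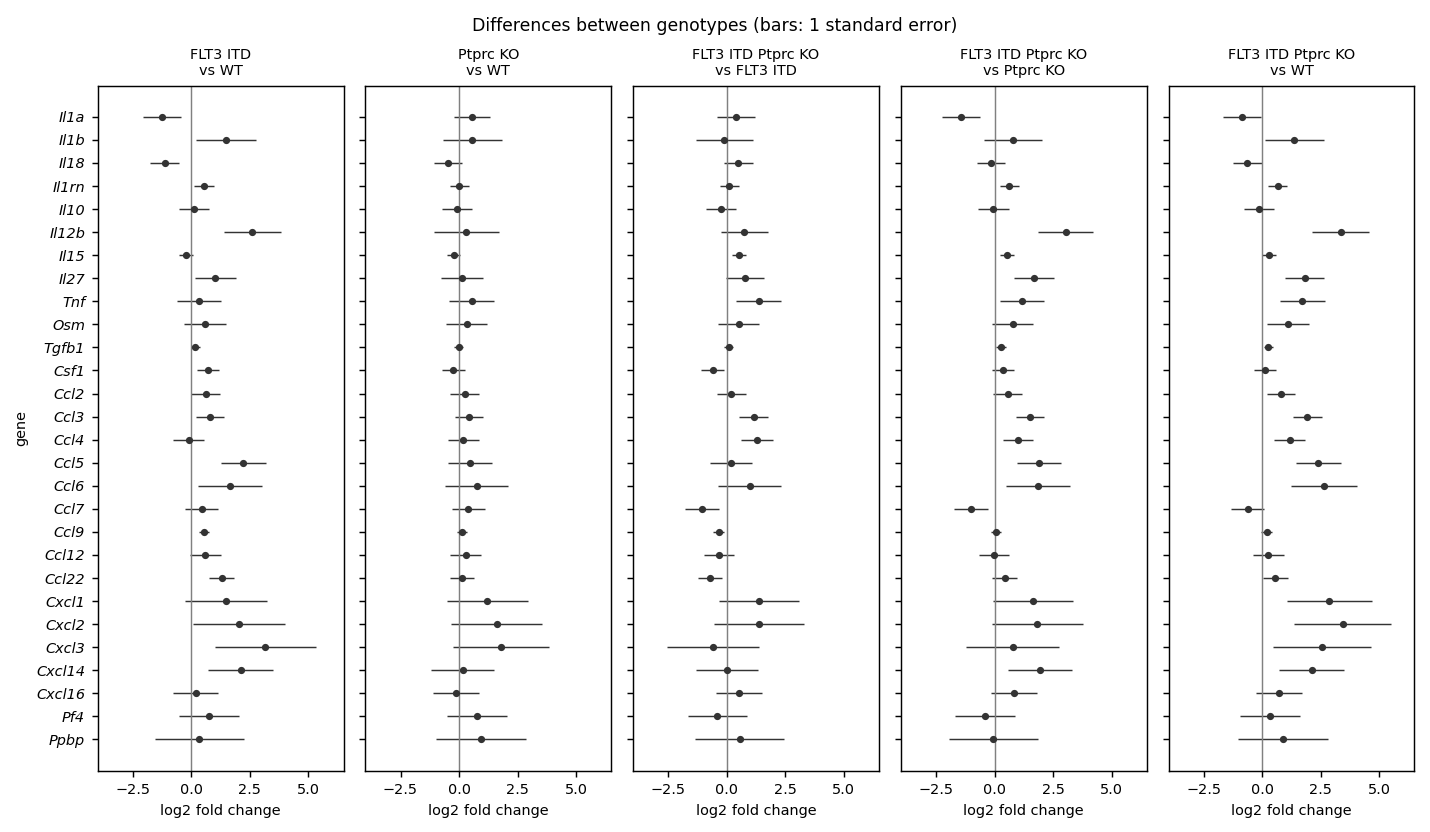
Log2 fold change (points) with 1 standard error (bars) of the 28 compared genes, by role from top to bottom, in the 5 pairs of genotypes. Most points lie right of 0 in FLT3 ITD and FLT3 ITD Ptprc KO against WT, Cxcl1, Cxcl2, Cxcl3 and Ppbp have the longest bars, and no gene passed the adjusted threshold.

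In FLT3 ITD against WT, fitted log2 fold changes were positive for 24 members and negative for 4, with a median of 0.61, against 54.5% positive and a median of 0.04 over all genes. The direction turned with 1 culture: without FLT3 ITD replicate 4 the members' median was -0.22, with 13 positive, and without WT replicate 3 it was 1.16. Without WT replicate 2 it was 0.39. There were 3 members with an unadjusted p under 0.05 in edgeR: Ccl22, Ccl5 and Ccl9. The share over all genes was 8.45%. Ccl9 was the member whose groups did not overlap with such a p. It was at 1825, 1993, 2165 and 1740.1 CPM in WT and at 2341, 4077, 2218 and 2534 CPM in FLT3 ITD, with a log2 fold change of 0.53 (SE 0.23) and an adjusted p of 0.59. Every FLT3 ITD culture was above every WT culture in CPM, but the largest value came from replicate 2, and the fold change was 0.29 without it. In TPM the ranges overlap, at 2020 to 2387 in WT and 2325 to 3476 in FLT3 ITD. Ptprc KO cultures were at 1828 to 2288 CPM for Ccl9 and FLT3 ITD Ptprc KO cultures at 1476 to 2749 CPM, both overlapping WT. Ccl3, a ligand of Ccr1, was the only other member without overlap in this pair (log2 fold change 0.79, SE 0.61, adjusted p 0.682 in edgeR). Of all genes, 2.89% were higher in every FLT3 ITD library than in every WT library, against 2 of 28 members.

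Tgfb1, the steadiest member, was at 213, 239, 254 and 285 CPM in WT, 191, 268, 262 and 258 CPM in Ptprc KO, 248, 258, 249 and 364 CPM in FLT3 ITD, and 292, 402, 287 and 208 CPM in FLT3 ITD Ptprc KO. All ranges overlap. Its largest log2 fold change in the 5 pairs was 0.28 (SE 0.20), in FLT3 ITD Ptprc KO against Ptprc KO, with an adjusted p of 0.419 in edgeR.

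Ccl22 and Ccl5, named after their values were seen, rested on 1 FLT3 ITD culture. Ccl22, a ligand of Ccr4 made by macrophages and dendritic cells, was at 3.22, 3.13, 4.09 and 2.56 CPM in WT and at 5.08, 3.6, 5.16 and 18.03 CPM in FLT3 ITD, with a log2 fold change fitted at 1.29 (SE 0.52, adjusted p 0.59 in edgeR), or 0.51 without FLT3 ITD replicate 4. Ccl5, a chemokine that T cells also make, was at 1.63, 0.265, 1.27 and 0.498 CPM in WT and at 1.1, 1.52, 1.47 and 12.99 CPM in FLT3 ITD, with a log2 fold change fitted at 2.22 (SE 0.95, adjusted p 0.59 in edgeR), or 0.58 without the same culture. In both genes the highest FLT3 ITD value is that of replicate 4, where the macrophage sum also peaked. Of the dendritic cell markers, Itgax was highest there, at 153 CPM, and Cd209a lowest, at 0.125 CPM. The part of either cell type was not tested. For Cxcl3 in the same pair the sign itself turned, from 3.16 (SE 2.15) to -1.81 without FLT3 ITD replicate 4, and that of Cxcl14 turned from 2.10 (SE 1.39) to -1.21.

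Loss of Ptprc alone left every member far from the threshold. In Ptprc KO against WT, 22 members were positive and 6 negative with a median log2 fold change of 0.29, against 54.9% positive and a median of 0.02 over all genes. Without Ptprc KO replicate 4, 2 of the 28 were positive and the median was -0.75, and without WT replicate 3 it was 0.65. Leaving out any other of the 8 libraries moved it to between 0.07 and 0.53 with the sign kept. None had an unadjusted p under 0.05 in edgeR, where 102 of the 12093 genes tested did, so 0 of 28 is near the background. The lowest p was 0.40, for Cxcl3. For Cxcl2 the log2 fold change was 1.61 (SE 1.94) and became -3.01 without Ptprc KO replicate 4 and 4.75 without WT replicate 3. That of Pf4 was 0.76 (SE 1.28) and became -1.93 and 2.46 without these cultures.

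With both alleles, FLT3 ITD Ptprc KO against WT gave 24 positive and 4 negative members and a median of 0.85, against 56.3% and 0.05 over all genes. Without FLT3 ITD Ptprc KO replicate 2 the median was 0.08, with 15 of the 27 members then tested positive. Without WT replicate 3 it was 1.58, and without WT replicates 1 or 2 it was 0.53 and 0.52. Il12b, Ccl5 and Ccl3 had an unadjusted p under 0.05 in edgeR, where 7.89% of all genes did. Ccl3 was at 6.09, 4.72, 7.18 and 7.32 CPM in WT, 4.39, 6.09, 4.5 and 18.9 CPM in Ptprc KO, 8.02, 8.23, 7.88 and 19.6 CPM in FLT3 ITD, and 31.6, 48.7, 5.96 and 10.5 CPM in FLT3 ITD Ptprc KO. Its log2 fold change was 1.93 (SE 0.63) with an adjusted p of 0.442, and 1.34 without FLT3 ITD Ptprc KO replicate 2. Replicates 1, 2 and 4 were above every WT culture and replicate 3 was not. Osteoclast markers divided the cultures in the same way, with 46288 CPM in FLT3 ITD Ptprc KO replicate 3 and at most 10225 CPM in the other 3, and their part in the Ccl3 values was not tested. All 10 osteoclast markers had a negative log2 fold change in this pair, with a median of -1.06, and none was called.

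Il12b, the p40 subunit shared by interleukins 12 and 23, rests on 132 counts in all. It was at 0.0691, 0, 0.0687 and 0.107 CPM in WT, 0, 0.0438, 0.0378 and 0.214 CPM in Ptprc KO, 0.094, 0.173, 0.344 and 0.916 CPM in FLT3 ITD, and 0.0919, 1.69, 0.0326 and 0.72 CPM in FLT3 ITD Ptprc KO. WT and most Ptprc KO values are at or under about 3 counts, so no fold is read from them. Ccl5 was at 1.96, 11.7, 0.716 and 4.8 CPM in FLT3 ITD Ptprc KO, with a log2 fold change against WT fitted at 2.39 (SE 0.96, adjusted p 0.593 in edgeR). Il27, a heterodimeric cytokine subunit, was at 0.95, 1.07, 0.261 and 0.45 CPM in FLT3 ITD Ptprc KO, 0.138, 0.0796, 0.172 and 0.391 CPM in WT and 0.157, 0.0433, 0.125 and 1.29 CPM in FLT3 ITD. Without FLT3 ITD replicate 4, Il27 passed the threshold in FLT3 ITD Ptprc KO against FLT3 ITD (log2 fold change 2.56, adjusted p 0.0371 in edgeR), as did 14.7% of all genes in that setting. The other FLT3 ITD libraries held 5, 1 and 4 counts of it, so the size is not read. With all libraries the value was 0.78 (SE 0.81). Il27 was named after these values were seen, it overlaps Apobr on the other strand, and it was the one member called under any alternative.

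The remaining comparisons gave no call in the cytokine genes either. FLT3 ITD Ptprc KO against Ptprc KO had 21 positive and 7 negative members with a median of 0.70, against 54.4% and 0.04 over all genes. Without FLT3 ITD Ptprc KO replicate 2 that median was -0.07, with 11 of 27 positive, without Ptprc KO replicate 4 it was 2.12, with 26 of 28 positive, and without Ptprc KO replicate 1 it was 0.45. Il12b and Ccl3 had an unadjusted p under 0.05 in edgeR there, against 17.8% of all genes. In FLT3 ITD Ptprc KO against FLT3 ITD, 19 were positive and 9 negative, with a median of 0.29 against 0.03 over all genes. No member had an unadjusted p under 0.05 in edgeR there, where 3104 of the 12093 genes tested did. The median was -0.76, with 6 of 27 positive, without FLT3 ITD Ptprc KO replicate 2 and 1.19, with 23 of 28 positive, without FLT3 ITD replicate 4. It was 0.17, 0.15 and 0.50 without FLT3 ITD replicate 1, FLT3 ITD replicate 3 and FLT3 ITD Ptprc KO replicate 3. In that pair all 10 osteoclast markers were negative, with a median of -1.59, and none was called. Ccl4, encoded next to Ccl3, had the lowest adjusted p of that pair, 0.229, at a log2 fold change of 1.29 (SE 0.67, edgeR). In the interaction 13 were positive and 15 negative, with a median of -0.10. No member had an unadjusted p under 0.05 in edgeR, where 2120 of the 12093 genes tested did. The lowest adjusted p was at Il15 (0.33 in edgeR), whose product supports natural killer and memory T cells. The sign of the interaction median also turned with 1 library: it was 1.26 without Ptprc KO replicate 4, 1.03 without FLT3 ITD replicate 4 and -0.81 without FLT3 ITD Ptprc KO replicate 2, and leaving out any other library gave -0.60 to 0.18. For any difference among the 4 genotypes, Il12b and Ccl3 had an unadjusted p under 0.05 in edgeR, against 12.5% of all genes. The pairs share their control libraries, so their counts are not independent of each other.

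Il15 did not follow the 4 cultures. It was at 11.96, 8.46, 5.08 and 8.6 CPM in WT, 9.86, 7.75, 6.08 and 5.32 CPM in Ptprc KO, 6.52, 7.02, 6.35 and 9.37 CPM in FLT3 ITD, and 13.3, 6.09, 12.2 and 10.4 CPM in FLT3 ITD Ptprc KO. WT replicate 3, Ptprc KO replicate 4 and FLT3 ITD Ptprc KO replicate 2 were the lowest of their genotypes. Csf1 spanned 0.982 to 5.62 CPM, Il10 0.658 to 3.595 CPM and Il18 0.866 to 7.39 CPM, and each of their ranges overlapped between genotypes in all 5 pairs.

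Receptors and regulators of these cytokines gave no call either. Of 23 cytokine receptor genes 21 were tested, of 14 chemokine receptor genes 9, and of 16 genes for cytokine processing and feedback 16, and 0 were called higher or lower in each comparison. The same order of peak cultures was held by 6, 3 and 7 of them, against 14.6% of all genes tested, where it was the commonest order. Of the receptor genes whose groups did not overlap with an unadjusted p under 0.05, 3 are given here. Over all genes, 8.45% had such a p in edgeR in FLT3 ITD against WT. The share was 17.8% in FLT3 ITD Ptprc KO against Ptprc KO and 7.89% against WT. The share of all genes that also had no overlap was not counted, so these 3 are not set apart from the background. Ccr7, a homing receptor of dendritic cells and lymphocytes, had a log2 fold change of 1.75 in FLT3 ITD against WT (adjusted p 0.59 in edgeR). Il18rap, an interleukin-18 receptor chain, had 1.23 in FLT3 ITD Ptprc KO against Ptprc KO (adjusted p 0.188 in edgeR) and 1.56 against WT (adjusted p 0.154). Il1rl1, the interleukin-33 receptor chain, had 1.14 against Ptprc KO (adjusted p 0.254 in edgeR).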

How the data were processed

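Poly(A) RNA of osteoclast cultures was sequenced in 16 libraries, 4 per genotype, with a directional kit and unique molecular identifiers, per the labels' protocols. The submitters' processing notes name STAR 2.7.6a, featureCounts 2.0.3, UMI-tools 1.1.1, cutadapt 4.2, bcl2fastq 2.20.0.422 and the build GRCm38.p6. The sources used here do not give whether counting used the strand. The authors deposited raw counts per gene and a separate table of TPM, which does not follow from those counts.

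The counts were filtered with filterByExpr (12093 genes kept), scaled with TMM and fitted with edgeR 4.0.16 (quasi-likelihood, robust) in R 4.3.3, as 4 group means over 16 libraries with 12 residual degrees of freedom. P-values were adjusted by Benjamini-Hochberg over all tested genes. CPM use TMM-scaled totals, and the prior count of log2 CPM was 2. TPM served for levels between genes. DESeq2 1.42.0, limma 3.58.1 on log2(TPM + 1), other filters and scalings, a replicate block and each library left out were alternatives. The fit was tested on simulated data in which every gene had the same spread. That check does not cover genes as uneven as most members. Promoter sequences are RefSeq's (GRCm38.p6) and gene positions GENCODE's (GRCm38).

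The members and lists were chosen with earlier results of these data known. Members were given per library if called, if their groups did not overlap with an unadjusted p under 0.05, or if among the 8 highest in mean TPM, together with genes of the same loci. Marker lists of T and NK cells, B and plasma cells and stromal cells were also summed: they reached at most 2.42, 3.22 and 46.2 CPM in any library. Samples whose replicate numbers match were not treated as paired. Not every receptor gene looked at is reported here.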

Additional observations from a re-analysis of the deposited data

Results flagged for a closer look

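Within each genotype the highest and lowest of the 4 cultures were compared with the nearest of the others, and a culture was singled out where that gap, as a share of the whole range, exceeded the Dixon critical value for 4 values. Of 112 groups of 4 (28 genes in 4 genotypes), 53 held such a culture, or 47.3%. Chance gives about 1 in 20 if values are normal, but CPM are skewed, and 11.8% of such groups over all genes tested held one. Of the 53, 51 came from WT replicate 3, Ptprc KO replicate 4, FLT3 ITD replicate 4 or FLT3 ITD Ptprc KO replicate 2. Those 4 cultures were picked out by the same values, so that tally repeats the description and supports nothing further, and genes of 1 library are not independent.

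The CXC chemokines gave the most, in up to all 4 genotypes. Cxcl1 reached 3.88 CPM in WT replicate 3, 9.07 CPM in Ptprc KO replicate 4, 10.8 CPM in FLT3 ITD replicate 4 and 28.6 CPM in FLT3 ITD Ptprc KO replicate 2. Cxcl2 stood out at 32.9 CPM in WT replicate 3, 106 CPM in Ptprc KO replicate 4, 141 CPM in FLT3 ITD replicate 4 and 337 CPM in FLT3 ITD Ptprc KO replicate 2. For Cxcl3 the values were 11.4 CPM in WT replicate 3, 41.2 CPM in Ptprc KO replicate 4, 107 CPM in FLT3 ITD replicate 4 and 56.2 CPM in FLT3 ITD Ptprc KO replicate 2. Ppbp had 11.7 CPM in WT replicate 3, 23.1 CPM in Ptprc KO replicate 4, 14.3 CPM in FLT3 ITD replicate 4 and 20.9 CPM in FLT3 ITD Ptprc KO replicate 2. Pf4 reached 154 CPM in WT replicate 3, 299 CPM in Ptprc KO replicate 4 and 240.0 CPM in FLT3 ITD replicate 4. Cxcl14 stood out at 19.6 CPM in WT replicate 3, 20.6 CPM in Ptprc KO replicate 4, 101 CPM in FLT3 ITD replicate 4 and 80.1 CPM in FLT3 ITD Ptprc KO replicate 2. For Cxcl16 the values were 275 CPM in Ptprc KO replicate 4 and 373 CPM in FLT3 ITD replicate 4.

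The CC chemokines gave them mainly in Ptprc KO and FLT3 ITD. Ccl3 had 18.9 CPM in Ptprc KO replicate 4 and 19.6 CPM in FLT3 ITD replicate 4. Ccl4 reached 10.5 CPM in Ptprc KO replicate 4. Ccl5 stood out at 13 CPM in FLT3 ITD replicate 4. For Ccl6 the values were 398 CPM in Ptprc KO replicate 4, 747 CPM in FLT3 ITD replicate 4 and 1265 CPM in FLT3 ITD Ptprc KO replicate 2. Ccl22 had 18 CPM in FLT3 ITD replicate 4.

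The interleukins and other cytokines gave theirs in the same cultures. Il1a reached 2.29 CPM in FLT3 ITD replicate 4 and 3.46 CPM in FLT3 ITD Ptprc KO replicate 2. Il1b stood out at 1.89 CPM in WT replicate 3, 2.86 CPM in Ptprc KO replicate 4, 3.91 CPM in FLT3 ITD replicate 4 and 5.39 CPM in FLT3 ITD Ptprc KO replicate 2. For Il1rn the value was 403 CPM in Ptprc KO replicate 4. Il10 had 3.37 CPM in WT replicate 3 and 3.22 CPM in Ptprc KO replicate 4. Il18 reached 3.75 CPM in FLT3 ITD replicate 4. Il27 stood out at 0.429 CPM in Ptprc KO replicate 4 and 1.29 CPM in FLT3 ITD replicate 4. For Tnf the values were 67.5 CPM in Ptprc KO replicate 4 and 50.7 CPM in FLT3 ITD replicate 4. Osm had 11.3 CPM in Ptprc KO replicate 4, 11.3 CPM in FLT3 ITD replicate 4 and 22.3 CPM in FLT3 ITD Ptprc KO replicate 2. Tgfb1 reached 364 CPM in FLT3 ITD replicate 4.

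The other 2 values came from other cultures. Tgfb1 was low in Ptprc KO replicate 1, at 191 CPM with the next at 258 CPM. Ccl9 was high in FLT3 ITD replicate 2, at 4077 CPM with the next at 2534 CPM.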

How the results depend on the processing

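No member was called in any of the 7 tests with the planned changes of scaling, filter, tool or unit, and none with FLT3 ITD replicates 1 and 3 summed, also with replicate 2 left out, a setting chosen after seeing the data, as was the count of peak cultures by TPM. Leaving out each library in turn, the number of members called ranged from 0 to 1 in FLT3 ITD Ptprc KO against FLT3 ITD (Il27, without FLT3 ITD replicate 4) and was 0 in the other tests. The fold changes themselves were unsteady: 103 of 168 changed sign under at least 1 alternative, and 294 of 3966 alternative values did. Counts over the whole table moved more. In FLT3 ITD against WT, Ptprc KO against WT, FLT3 ITD Ptprc KO against FLT3 ITD, against Ptprc KO and against WT, the interaction and any difference, edgeR called 5, 4, 1, 11, 13, 1 and 27 genes and DESeq2 60, 11, 984, 332, 117, 165 and 456. With a mean count of at least 50 they were 1, 2, 1, 3, 5, 0 and 13, and with limma on log2(TPM + 1) 4, 2, 2, 15, 8, 0 and 13. Without FLT3 ITD replicate 4, FLT3 ITD Ptprc KO against FLT3 ITD gave 1798 and any difference 105. Without FLT3 ITD Ptprc KO replicate 3, that genotype gave 786 against Ptprc KO and 83 against WT, and the interaction 56. The cause was not tested. On the TPM scale the median of all genes shifted to -0.21 in FLT3 ITD against WT, 0.22 in FLT3 ITD Ptprc KO against FLT3 ITD and 0.31 in the interaction, with member medians of 0.31, 0.48 and 0.35.

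With the replicate block as a paired fit, 0 members were called in each test and the whole-table counts were 0, 1, 1, 47, 9, 0 and 19. Positive members became 17 in FLT3 ITD against WT and 11 in Ptprc KO against WT (median -0.06), and 22 in the interaction (median 0.61). Of 24 same-number pairs, 12 had deviations correlated over 0.1 (r from -0.63 to 0.85). The median r was 0.07 for these 24 pairs and -0.009 for pairs of unlike number. Of 16 libraries, 8 were closest to a library of their own number in another genotype. These values do not settle whether the numbers pair the cultures, and the main fit was left unpaired. Depth limits Il12b, Il27 and Il1b most. DESeq2 gave no adjusted p for 4 of the 28 members.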
